A study of Ovis aries with 15 samples.

Results

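The transforming growth factor beta (TGF-beta) ligands TGFB1, TGFB2 and TGFB3, their receptors TGFBR1 and TGFBR2, the bone morphogenetic protein (BMP) antagonist CHRD and the transcription factor SNAI2 were followed in the kidney cortex of 15 fetal sheep. Total RNA was hybridised to 1-colour Agilent ovine arrays, 1 array per fetus. Probes were chosen by their gene name on the array, in any case and with SLUG counted as SNAI2. This gave 11 of 15008 probes for 7 of the 8 gene names looked for, among 972 named genes on the array, and the accessory receptor gene TGFBR3 was not analysed here. The groups were hypoxia with ketamine (4 fetuses), hypoxia with vehicle (4), normoxia with ketamine (4) and normoxia with vehicle (3). Hypoxia was brought about through the ewe's ventilation for 30 min, and normoxic fetuses had a control period of 30 min. Ketamine, an NMDA receptor blocker used for anaesthesia, was injected into the fetus intravenously at 3 mg/kg, 10 min ahead of the challenge, and saline served as the vehicle. Every fetus, controls included, carried long-term catheters, was at 125 ± 3 d of gestation and was sampled 24 h after the challenge began. The comparisons address what a short hypoxic episode leaves behind in the cortex a day later, and whether ketamine alters it.

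TGF-beta ligands bind TGFBR2, which recruits and phosphorylates TGFBR1, and TGFBR1 then activates Smad proteins that enter the nucleus with SMAD4. The pathway drives matrix production and fibroblast activation in the kidney, and SNAI2 (Slug) is a zinc-finger repressor of epithelial adhesion genes that TGF-beta can induce and that marks mesenchymal cells. CHRD (chordin) binds BMP ligands outside the cell and keeps them from their receptors, on a branch of the same superfamily that guides nephron formation.

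Among kidney genes taken as tissue markers, AQP1, AQP2, AQP3, SLC34A1 and WT1 were well above background on all 15 arrays and CYP24 on 10. Of 15 arrays, hypoxia vehicle replicate 4 and hypoxia ketamine replicate 2 were the least like the others, with median correlations of 0.952 and 0.966 with the remaining arrays. Placental lactogen, a transcript of another tissue, was well above background in hypoxia ketamine replicate 2 and in normoxia ketamine replicates 1 and 2. Hypoxia ketamine replicate 4 had the highest detection limit. In whole cortex, fewer cells of a type and less RNA per cell cannot be told apart. Precision is limited by having 3 or 4 arrays in a group.

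The sequences below, written 5′ to 3′ as the scanner files list them, show which probes of a gene are independent of each other. The paired probes of TGFB3, CHRD and SNAI2 share 59 of their 60 bases, so each pair measures the same stretch of transcript. For TGFB3 and CHRD the capital marks the base that the partner lacks. For SNAI2, designed on an expressed sequence tag, the last 30 bases are given and the capitals mark the CA repeat. The TGFBR1 probes start at bases 661 and 721 of the same transcript sequence and share no base.
TGFB3 A_70_P031231: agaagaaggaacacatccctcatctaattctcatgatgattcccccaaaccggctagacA
TGFB3 A_70_P031232: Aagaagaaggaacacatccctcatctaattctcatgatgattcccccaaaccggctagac
CHRD A_70_P026676: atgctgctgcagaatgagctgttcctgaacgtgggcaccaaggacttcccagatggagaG
CHRD A_70_P026677: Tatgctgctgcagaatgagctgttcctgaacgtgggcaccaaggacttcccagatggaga
TGFBR1 A_70_P031237: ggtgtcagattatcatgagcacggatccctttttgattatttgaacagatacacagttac
TGFBR1 A_70_P031236: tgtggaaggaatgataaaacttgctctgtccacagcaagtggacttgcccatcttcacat
SNAI2 A_70_P034806: attatatgtatagacCACACACACACACAC
SNAI2 A_70_P034807: aattatatgtatagacCACACACACACACA

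No other probe of the array shared a run of 20 or more bases with any of the 11 on either strand. Between probes of different genes among the 11, the longest shared run was 8 bases. The motif CACACACACACA, as in the SNAI2 probes, was found on the listed strand of 12 of 15008 probes (0.08%) and on either strand of 17 (0.113%). Of these, 10 probes other than SNAI2 could be tested on the listed strand. Between hypoxia vehicle and normoxia vehicle fetuses 1 of the 10 fell and their median log2 change was -0.22, against -0.05 over all 12927 probes tested.

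Values below are log2 signals relative to the array's own 75th percentile, so a difference of 1 is a 2-fold difference, and groups are compared within a probe. The brighter probe of each gene gives its result, a change passed at the study's threshold of an unadjusted limma p of 0.05, and adjusted p-values are Benjamini-Hochberg values over all 12927 probes. In hypoxia vehicle against normoxia vehicle fetuses 3 of the 7 genes passed, TGFBR1, CHRD and SNAI2, and all 3 fell. Over all probes 16.1% passed in this comparison and 10.3% fell. In hypoxia ketamine against normoxia ketamine fetuses none of the 7 passed, where 8.65% of all probes did. In hypoxia ketamine against hypoxia vehicle fetuses SNAI2 rose and TGFB3 fell, 2 of 7 genes, where 2.57% of all probes rose, 3.48% fell and 6.05% passed in either direction. Of the probes that passed there 42.5% rose, against 54.0% with normexp, a background correction that starts from the mean spot signal. In normoxia ketamine against normoxia vehicle fetuses CHRD fell, 1 of 7 genes, where 1.75% of all probes fell and 2.7% passed in either direction. Of those that passed 35.2% rose, against 50.9% with normexp, 52.4% with quantile scaling and 46.8% in the deposited table. The hypoxia by ketamine interaction, the hypoxia change with ketamine minus that with vehicle, passed for TGFB3, CHRD and SNAI2, 3 of 7 genes, against 3.13% of all probes. Averaged over vehicle and ketamine, TGFB2, TGFBR1 and SNAI2 fell with hypoxia, 3 of 7 genes, where 20.2% of all probes passed and 12.5% fell. After adjustment none of the 11 probes passed in any of the 6 comparisons. The nearest was SNAI2 in the averaged comparison (adjusted p = 0.0526 in limma), in which 1.6% of all probes passed; the share was 0.0155% (2 probes) in hypoxia vehicle against normoxia vehicle fetuses and 0% in the remaining 4 comparisons. The comparisons share arrays: the 4 hypoxia vehicle arrays enter 2 of the pairwise comparisons with opposite sign, the 3 normoxia vehicle arrays are the denominator of 2, and the interaction uses all 4 groups. The members and the lists further below were chosen with earlier results of these data known. Their counts beside the shares of all probes are therefore descriptive and cannot measure an excess.

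**Figure D1:**
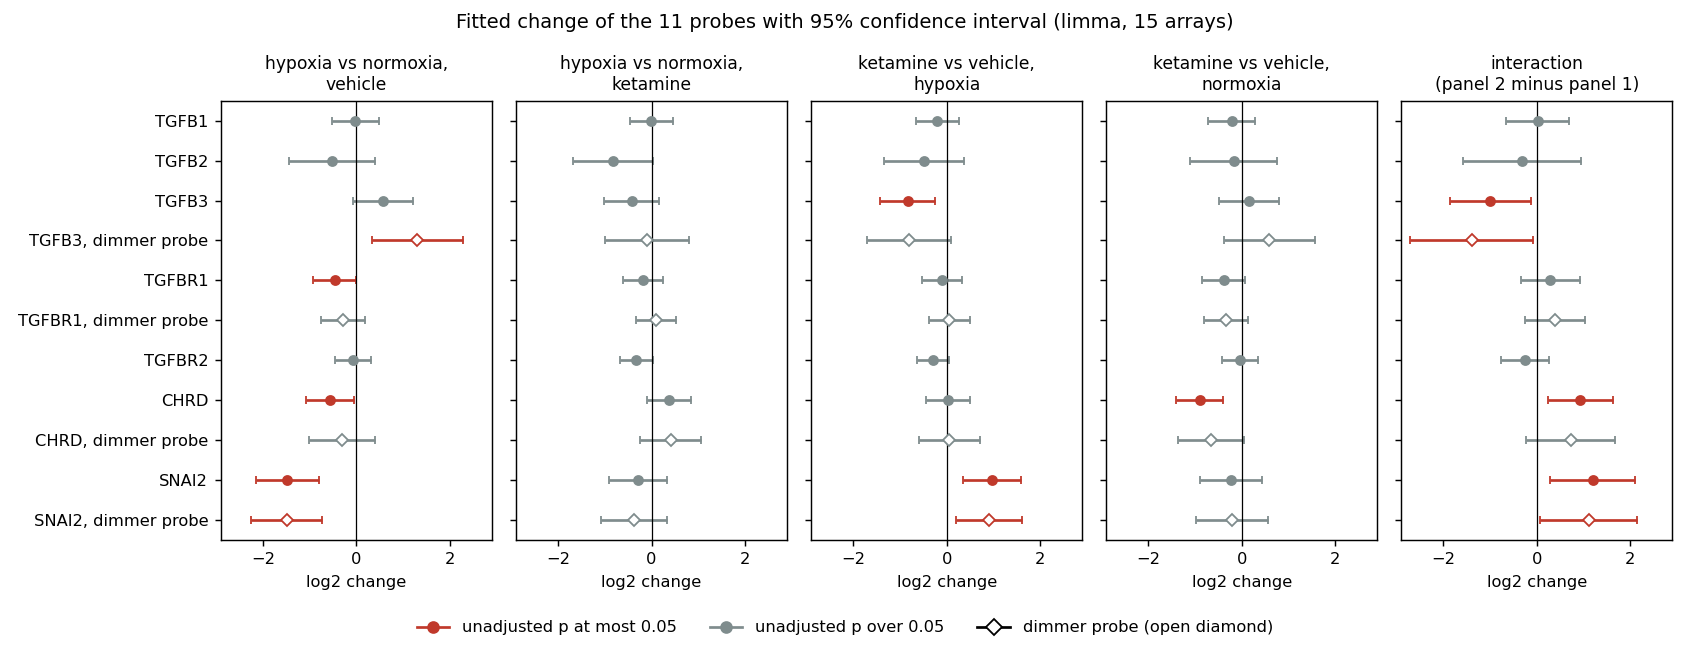
Fitted log2 change of each of the 11 probes with its 95% confidence interval, in a panel per comparison; red marks an unadjusted p of at most 0.05 and open diamonds the dimmer probe of a gene. The SNAI2 pair gives nearly the same change in every panel, whereas the TGFB3 pair gives 0.57 and 1.30 between hypoxia vehicle and normoxia vehicle fetuses.

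TGFB1, the ligand most studied in kidney fibrosis, did not pass in any comparison. Its level ranged from -2.56 to -2.01 in hypoxia ketamine, from -2.31 to -1.74 in hypoxia vehicle, from -2.76 to -1.68 in normoxia ketamine and from -2.22 to -1.77 in normoxia vehicle fetuses. All 4 groups overlapped. The change between hypoxia vehicle and normoxia vehicle fetuses was -0.02 (95% confidence interval -0.52 to 0.48), and that between hypoxia ketamine and hypoxia vehicle fetuses was -0.20 (-0.66 to 0.27). The probe was bright, at 12.5 to 45.4 times the lowest signal that its array called well above background.

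TGFB2, a ligand whose loss disturbs kidney development in mice, read -0.78, -0.57, -0.07 and 0.81 in hypoxia ketamine and 0.29, -0.18, 0.23 and 1.01 in hypoxia vehicle fetuses. It read 1.32, 0.13, 0.99 and 0.29 in normoxia ketamine and 1.60, 0.35 and 0.62 in normoxia vehicle fetuses. The hypoxic arrays lay lower on the whole, but 1 array of each hypoxic group was above the middle of the normoxic ones and the groups overlapped. Averaged over both treatments TGFB2 fell by 0.67 ± 0.29 (SE) with hypoxia, a 1.60-fold lower level (unadjusted p = 0.0371, adjusted p = 0.217 in limma). The hypoxia change was -0.83 ± 0.40 with ketamine (unadjusted p = 0.0552) and -0.52 ± 0.43 with vehicle (unadjusted p = 0.247), and the interaction of -0.31 ± 0.58 did not pass (unadjusted p = 0.599). Slide 1 holds 8 arrays, and slide 2 holds normoxia vehicle replicate 3 alone of its group. Slide 2 values that involve normoxia vehicle thus rest on that array. Within slide 1 the averaged TGFB2 change was -0.58 and did not pass. It was -0.71 within slide 2, and with slide as a block it passed (-0.65). It passed with 7 of the 15 arrays left out in turn, and its smallest size was -0.49 without normoxia vehicle replicate 1. Without the 3 arrays with placental lactogen it was -0.58 and did not pass.

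TGFB3, which is close to TGFB1 in its receptor use, was near the detection limit, at 0.715 to 3.29 times it for the brighter probe. That probe read -6.61, -5.73, -6.98 and -6.46 in hypoxia ketamine and -5.68, -5.43, -5.99 and -5.34 in hypoxia vehicle fetuses. It read -6.22, -6.22, -5.95 and -5.70 in normoxia ketamine and -5.88, -6.80 and -5.86 in normoxia vehicle fetuses. Of the hypoxia ketamine arrays 3 lay below every hypoxia vehicle array and the other, replicate 2, lay among them; 2 of the 4 were not well above background. TGFB3 fell by 0.83 ± 0.27 in hypoxia ketamine against hypoxia vehicle fetuses, 1.78-fold (unadjusted p = 0.00888, adjusted p = 0.805 in limma). The dimmer probe gave -0.81 ± 0.42 and did not pass. The hypoxia change was -0.42 ± 0.27 with ketamine and 0.57 ± 0.29 with vehicle, neither past the threshold, and the interaction of -0.99 ± 0.40 passed (unadjusted p = 0.0276). The hypoxia changes moved with the slide: with ketamine the value was 0.13 on slide 1 and -0.97 on slide 2, where it passed, and with vehicle it was 0.96 on slide 1, where it passed, and 0.02 on slide 2. With normexp both turned sign, to 0.31 with ketamine and -0.06 with vehicle, and neither passed. The ketamine value passed without hypoxia ketamine replicate 2 (-0.66), without the 2 arrays least like the others (-0.66) and without the 3 arrays with placental lactogen (-0.86), and was -0.24 without hypoxia ketamine replicate 3. The vehicle value was 0.26 without normoxia vehicle replicate 2. It passed without normoxia vehicle replicate 3 (0.73), hypoxia vehicle replicate 3 (0.70), hypoxia ketamine replicate 2 (0.57) or the 3 arrays with placental lactogen (0.57).

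The dimmer TGFB3 probe read -6.45, -5.92, -5.64 and -4.84 in hypoxia vehicle and -7.30, -7.60 and -6.15 in normoxia vehicle fetuses. It rose by 1.30 ± 0.45, 2.46-fold (unadjusted p = 0.0124), with 1 of the 3 normoxia vehicle arrays well above background, that array lying within the hypoxia vehicle range. Within slide 1 this change was 2.06 and passed, and within slide 2, against normoxia vehicle replicate 3 alone, it was 0.11. Leaving out normoxia vehicle replicate 2 ended the call (1.01), and so did normexp (0.12). With normexp the change of the brighter probe between hypoxia ketamine and hypoxia vehicle fetuses was 0.18 and its interaction 0.38, both of the opposite sign and neither past the threshold. The brighter probe's interaction no longer passed when any of 4 arrays was left out: hypoxia ketamine replicate 3 (-0.81), hypoxia vehicle replicate 4 (-0.90), normoxia ketamine replicate 4 (-0.88) or normoxia vehicle replicate 2 (-0.68). On slide 1 the ketamine change in hypoxia (-0.71) and the interaction (-0.83) did not pass. On slide 2 the ketamine change in hypoxia passed (-0.96) and the interaction was -0.995.

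**Figure D2:**
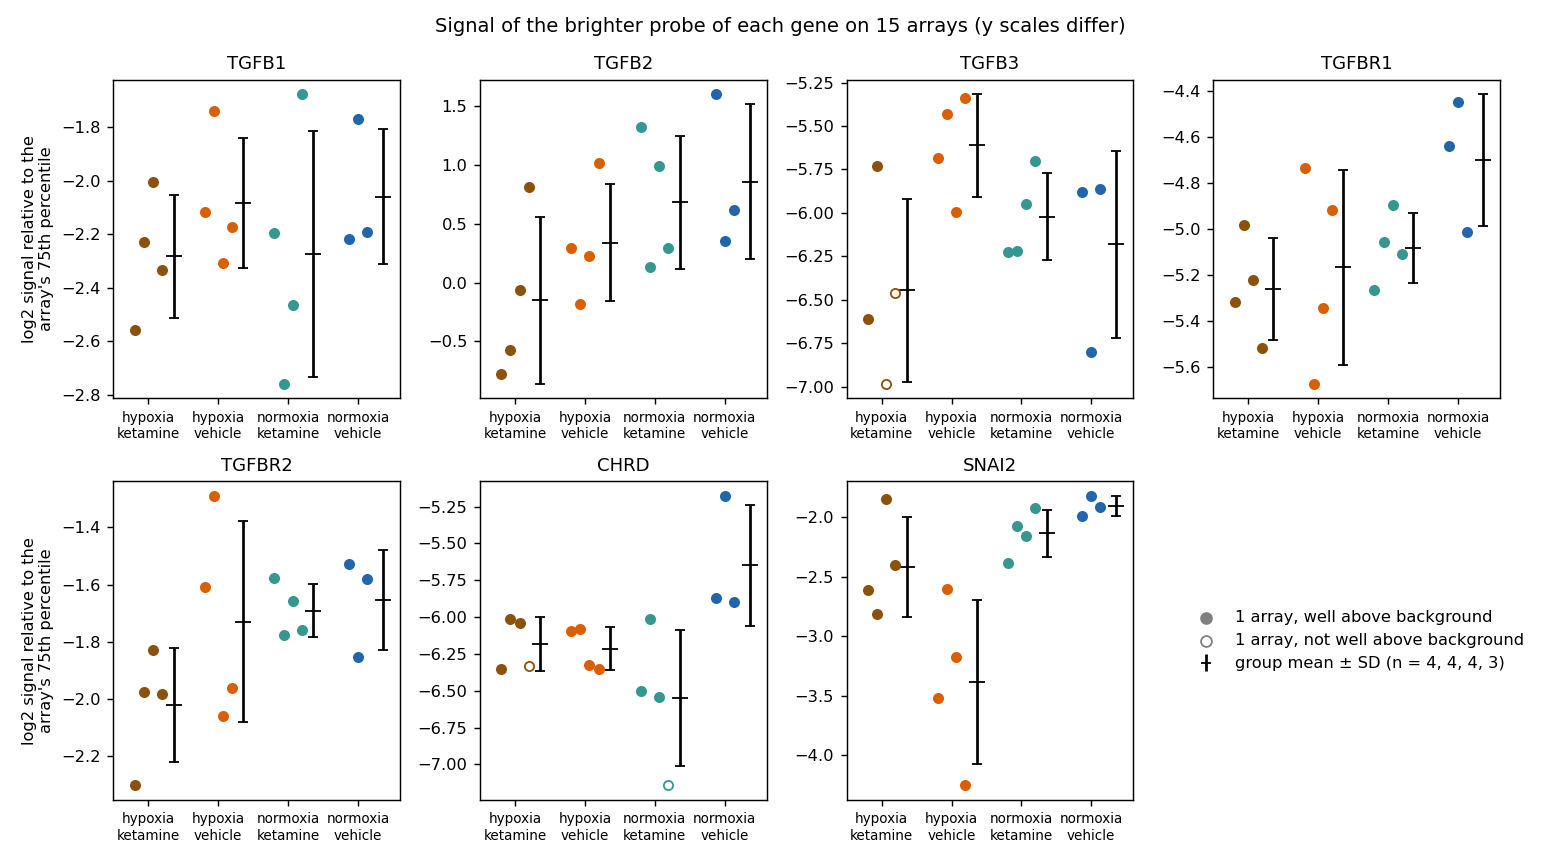
Log2 signal of the brighter probe of each of the 7 genes on every array, with group means and SD; open circles are arrays on which the probe was not well above background. SNAI2 in hypoxia vehicle fetuses lies between -4.25 and -2.61, below every normoxia vehicle array, as did 9.57% of all probes in that comparison. TGFB1 overlaps in all 4 groups.

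TGFBR1, the type I receptor kinase, read -5.32, -4.98, -5.22 and -5.52 in hypoxia ketamine and -4.74, -5.67, -5.35 and -4.92 in hypoxia vehicle fetuses. It read -5.27, -5.06, -4.90 and -5.11 in normoxia ketamine and -4.64, -4.45 and -5.01 in normoxia vehicle fetuses. Normoxia vehicle replicates 1 and 2 were the highest of the 15 arrays, and the groups overlapped. Averaged over both treatments TGFBR1 fell by 0.32 ± 0.15 with hypoxia (unadjusted p = 0.0452, adjusted p = 0.235 in limma). The non-overlapping dimmer probe gave -0.10 ± 0.15 on the same average and -0.29 ± 0.22 between hypoxia vehicle and normoxia vehicle fetuses, neither past the threshold. With normexp the averaged change of the brighter probe was 0.0016. It did not pass within slide 1 (-0.42) or with slide as a block (-0.32), and was -0.15 within slide 2. It passed with 5 of the 15 arrays left out in turn, as did its fall of 0.47 between hypoxia vehicle and normoxia vehicle fetuses. The vehicle change was -0.75 on slide 1, where it did not pass, -0.03 on slide 2 and -0.30 without hypoxia vehicle replicate 2.

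TGFBR2, the type II receptor that binds the ligand first, read -2.30, -1.97, -1.83 and -1.98 in hypoxia ketamine and -1.61, -1.29, -2.06 and -1.96 in hypoxia vehicle fetuses. It read -1.58, -1.77, -1.66 and -1.76 in normoxia ketamine and -1.53, -1.85 and -1.58 in normoxia vehicle fetuses. The 4 hypoxia ketamine arrays lay below the 4 normoxia ketamine arrays, as did 3.68% of all probes in that comparison. The change of -0.33 ± 0.16 did not pass (95% confidence interval -0.68 to 0.02). Between hypoxia vehicle and normoxia vehicle fetuses the change was -0.08 ± 0.18, and the interaction of -0.25 ± 0.24 did not pass. The spread of this probe over the 15 arrays, with an SD of 0.25, was below the median of 0.28 over all probes.

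CHRD, the BMP antagonist, was also near the detection limit, at 0.782 to 4.28 times it. Its brighter probe read -6.35, -6.01, -6.04 and -6.33 in hypoxia ketamine and -6.10, -6.08, -6.32 and -6.35 in hypoxia vehicle fetuses. It read -6.50, -6.01, -6.54 and -7.14 in normoxia ketamine and -5.87, -5.18 and -5.90 in normoxia vehicle fetuses. The normoxia ketamine and the hypoxia vehicle arrays lay wholly below the 3 normoxia vehicle arrays. CHRD fell by 0.90 ± 0.24 in normoxia ketamine against normoxia vehicle fetuses, 1.87-fold (unadjusted p = 0.00205, adjusted p = 1 in limma), where 4.59% of all probes lay wholly below. It fell by 0.56 ± 0.24, 1.48-fold, in hypoxia vehicle against normoxia vehicle fetuses (unadjusted p = 0.0321), where 9.57% of all probes lay wholly below. Both comparisons rest on the same 3 normoxia vehicle arrays.

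The hypoxia change of CHRD was 0.36 ± 0.22 with ketamine and did not pass, and the interaction of 0.93 ± 0.32 passed (unadjusted p = 0.0124). Between hypoxia ketamine and hypoxia vehicle fetuses the change was 0.03 (95% confidence interval -0.44 to 0.50). The dimmer probe, on the same bases but 1, gave -0.67 ± 0.33 for ketamine in normoxia, -0.31 ± 0.33 for hypoxia with vehicle and 0.72 ± 0.45 for the interaction, none past the threshold. The ketamine change in normoxia was -0.73 on slide 1, where it did not pass, and -0.94 on slide 2, against normoxia vehicle replicate 3 alone. With slide as a block it was -0.86 and passed. The hypoxia change with vehicle and the interaction did not pass on slide 1 (-0.69 and 0.77) but did with slide as a block (-0.53 and 0.89). On slide 2 they were -0.31 and 0.96. Normexp ended all 3 calls, with -0.42, -0.28 and 0.67. Leaving out hypoxia vehicle replicate 3 (-0.53), hypoxia vehicle replicate 4 (-0.52) or normoxia vehicle replicate 2 (-0.33) ended the hypoxia call with vehicle.

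SNAI2 had the largest change of the 7 genes' brighter probes, between hypoxia vehicle and normoxia vehicle fetuses, and was bright, at 7.0 to 43.7 times the detection limit. Its brighter probe read -2.61, -2.82, -1.85 and -2.41 in hypoxia ketamine and -3.52, -2.61, -3.17 and -4.25 in hypoxia vehicle fetuses. It read -2.39, -2.08, -2.16 and -1.92 in normoxia ketamine and -1.99, -1.82 and -1.91 in normoxia vehicle fetuses. Every hypoxia vehicle array lay below every normoxia vehicle array, as did 9.57% of all probes in that comparison. Hypoxia vehicle replicate 2, the highest of its group, lay within the hypoxia ketamine range. Group means were -2.42 ± 0.42 in hypoxia ketamine, -3.39 ± 0.69 in hypoxia vehicle, -2.14 ± 0.19 in normoxia ketamine and -1.91 ± 0.08 in normoxia vehicle fetuses (SD over arrays). Normoxia ketamine did not differ past the threshold from normoxia vehicle (-0.23 ± 0.31), nor hypoxia ketamine from normoxia ketamine (-0.28 ± 0.29; 95% confidence interval -0.90 to 0.33).

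With ketamine before hypoxia SNAI2 rose by 0.97 ± 0.29 relative to hypoxia vehicle fetuses, a 1.95-fold higher level (unadjusted p = 0.00485, adjusted p = 0.805 in limma). This ranked 71st by p among 12927 probes, and the hypoxia change with vehicle, a 2.78-fold lower level, ranked 39th in its own comparison. Both p-values and ranks rest on 1 variance shared by all 15 arrays. The SNAI2 SDs of the hypoxic groups (0.42 and 0.69) exceeded those of the normoxic groups (0.19 and 0.08). The ketamine change in hypoxia also passed when only the groups compared were fitted. The interaction was 1.19 ± 0.42 (unadjusted p = 0.0139, adjusted p = 0.989), so the hypoxia change differed between ketamine and vehicle fetuses before adjustment only. The dimmer probe gave 0.90 ± 0.33 for ketamine in hypoxia, -1.49 ± 0.35 for hypoxia with vehicle and 1.11 ± 0.48 for the interaction, all past the threshold. Averaged over both treatments the brighter probe fell by 0.88 ± 0.21 with hypoxia, 1.84-fold (unadjusted p = 0.00104).

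The hypoxia change of SNAI2 with vehicle was -1.52 on slide 1, where it passed, and -1.43 on slide 2, against normoxia vehicle replicate 3 alone. With slide as a block it was -1.51. The ketamine change in hypoxia was 0.82 on slide 1, where it did not pass, 1.12 on slide 2 and 0.97 with the block. The interaction was 1.14 on slide 1, where it did not pass, 1.24 on slide 2 and 1.22 with the block. Hypoxia vehicle replicate 4, the lowest SNAI2 array, was also the least like the others. Without it and hypoxia ketamine replicate 2 the hypoxia change with vehicle was -1.19, the ketamine change in hypoxia 0.81 and the interaction 1.04, and all 3 passed. Without the 3 arrays with placental lactogen the interaction was 1.23 and passed. Leaving out any 1 array ended none of these calls of the brighter probe; the dimmer probe's ketamine change in hypoxia ended without hypoxia vehicle replicate 4 (0.56) or hypoxia ketamine replicate 3 (0.70), and its interaction passed with 5 of 15 arrays left out in turn.

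Markers of other cell types were read on the same arrays, as sums of signal in units of the array's 75th percentile. The 5 fibroblast and matrix genes (COL1A2, COL3A1, COL6A1, DCN and FBLN1) summed to 26.5 to 37.6 in hypoxia ketamine, 24.2 to 37.5 in hypoxia vehicle, 26.8 to 41.7 in normoxia ketamine and 29.2 to 33.7 in normoxia vehicle fetuses. DCN gave most of this sum, so its overlap between the groups describes mainly that gene. Of the 5 genes COL1A2 and COL3A1 fell and none rose in hypoxia vehicle against normoxia vehicle fetuses, where SNAI2 fell. The same held in hypoxia ketamine against normoxia ketamine fetuses. In these comparisons 16.1% and 8.65% of all probes passed. None of the 5 passed in hypoxia ketamine against hypoxia vehicle fetuses. The 7 monocyte and macrophage genes summed to 1.42 to 4.37 in hypoxia ketamine, 1.37 to 4.35 in hypoxia vehicle, 0.923 to 1.22 in normoxia ketamine and 0.971 to 1.09 in normoxia vehicle fetuses. All 8 hypoxic arrays were above all 7 normoxic arrays in this sum, and the share of all probes split in this way is not given here. Of the 7 genes, 5 rose in hypoxia vehicle against normoxia vehicle fetuses and 4 in hypoxia ketamine against normoxia ketamine fetuses. Of all probes 16.1% and 8.65% passed there in either direction. ITGAM was well above background on 3 arrays. Between hypoxia ketamine and hypoxia vehicle fetuses, where SNAI2 rose, none of the 7 passed. The 8 endothelial genes summed to 4.77 to 6.44 in hypoxia ketamine, 5.67 to 7.47 in hypoxia vehicle, 5.71 to 6.54 in normoxia ketamine and 5.92 to 6.51 in normoxia vehicle fetuses, and PECAM1 had the largest group mean of the 8 in all 4 groups. Of the 7 endothelial genes tested, SELP (P-selectin) rose by 4.85 ± 1.15 and KDR, a VEGF receptor, fell by 0.38 ± 0.14 in hypoxia vehicle against normoxia vehicle fetuses. KDR fell by 0.35 ± 0.13 in hypoxia ketamine against normoxia ketamine fetuses. In hypoxia ketamine against hypoxia vehicle fetuses, where SNAI2 rose, SELP fell by 2.54 ± 1.06. SELP ranged from -5.29 to -0.74 in hypoxia ketamine, from -2.45 to 1.95 in hypoxia vehicle, from -5.54 to -4.69 in normoxia ketamine and from -5.92 to -4.95 in normoxia vehicle fetuses, so the 2 hypoxic groups overlapped. The neutrophil genes CATHL3 and BAC5 summed to 1.91 to 39.9 in hypoxia ketamine, 1.02 to 70.1 in hypoxia vehicle, 0.439 to 1.59 in normoxia ketamine and 1.03 to 4.73 in normoxia vehicle fetuses. The part of these markers in the changes of SNAI2, CHRD and the receptors was not tested.

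The agreement of paired probes shows how far a value of a dim gene can be read. On the 15 arrays the brighter minus the dimmer probe averaged 0.25 ± 0.10 (SD) for SNAI2, with the brighter probe ahead on all 15 arrays. For CHRD the same difference was 0.05 ± 0.35, ranging from -0.66 to 0.53, and for TGFB3 it was 0.32 ± 0.52, ranging from -0.50 to 1.42. These pairs share 59 of 60 bases, and the spread between the probes of CHRD and TGFB3 was as large as many of the group changes given for them. The adjacent TGFBR1 probes, with no shared base, differed by 0.62 ± 0.23.

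**Figure D3:**
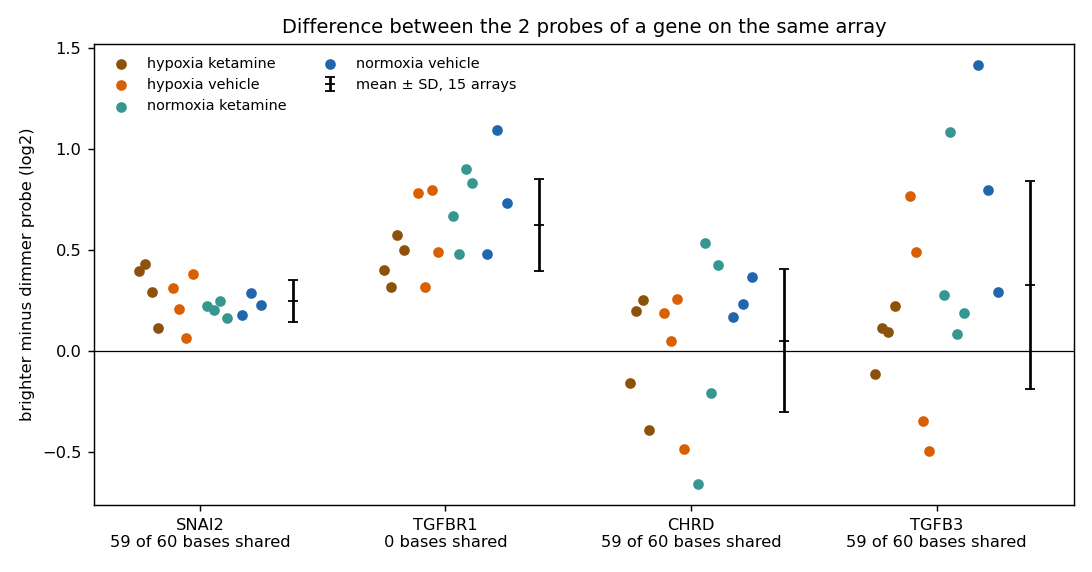
Difference in log2 signal between the brighter and the dimmer probe of a gene on each of the 15 arrays, coloured by group, with the mean and SD over the arrays. The SNAI2 points lie between 0.06 and 0.43, and the TGFB3 points spread from -0.50 to 1.42.

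Among other genes of the pathway, 7 Smads and Smad regulators were tested. In hypoxia vehicle against normoxia vehicle fetuses 3 of the 7 (SMAD2, SMAD4 and SMAD5) fell and none rose, where 10.3% of all probes fell. The median change of the 7 was -0.27, against -0.05 over all probes. SMAD5, a carrier of BMP signals, fell by 0.88 ± 0.19 (unadjusted p = 0.000465). SMAD2, a carrier of TGF-beta and activin signals, fell by 0.47 ± 0.11 (unadjusted p = 0.00102), and SMAD4, the shared partner, by 0.27 ± 0.12 (unadjusted p = 0.0465). With ketamine SMAD4 alone of the 7 fell with hypoxia, by 0.29 ± 0.12, where 8.65% of all probes passed in either direction. Averaged over both treatments SMAD5 fell by 0.62 ± 0.13 (adjusted p = 0.0368 in limma), SMAD2 by 0.30 ± 0.08 (adjusted p = 0.0623) and SMAD4 by 0.28 ± 0.08 (adjusted p = 0.0955). In that average 20.2% of all probes passed the unadjusted threshold and 12.5% fell. The interaction passed for SMAD2 (0.34 ± 0.15) but under 8 of 25 alternatives only. With normexp the SMAD5 changes were -0.37 with vehicle and -0.11 averaged and did not pass, in the deposited table they were -0.33 and -0.28, and the SMAD4 fall with vehicle passed under 8 of 26 alternatives.

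Of 6 other ligands of the family tested (INHA, INHBA, BMP4, BMP6, BMP7 and MSTN) none passed with hypoxia in vehicle or in ketamine fetuses. INHA, the inhibin alpha subunit, passed in the interaction (0.53 ± 0.19), but not with normexp, with quantile scaling or in the deposited table (0.61, 0.47 and 0.32). Of 5 other receptors ACVR2A, a type II activin receptor, fell by 0.41 ± 0.15 in hypoxia vehicle against normoxia vehicle fetuses. Over all probes 10.3% fell in that comparison. None of the 5 passed in hypoxia ketamine against normoxia ketamine fetuses. In the average over both treatments ACVR1 fell by 0.27 (unadjusted p = 0.0225 in limma) and passed under 20 of 25 alternatives. Of all probes 12.5% fell in that average. Normexp (-0.33) and leaving out normoxia vehicle replicate 2 (-0.35) or 3 (-0.36) ended the ACVR2A call.

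Of 6 other antagonists and latent-complex genes, the proteoglycan BGN fell by 0.45 ± 0.15 in hypoxia vehicle against normoxia vehicle fetuses. In that comparison 10.3% of all probes fell, and BGN passed under 24 of 26 alternatives. FST (follistatin), an activin antagonist, fell by 0.75 ± 0.28 in hypoxia ketamine against normoxia ketamine fetuses. Without the 3 arrays with placental lactogen the FST change was -0.22, without normoxia ketamine replicate 1 it was -0.45 and without hypoxia ketamine replicate 2 it was -0.52, and none of these passed. In the average over both treatments FST fell by 0.61 with hypoxia (unadjusted p = 0.0106 in limma) and passed under 24 of 25 alternatives. BGN fell by 0.25 in that average and passed under 13 of 25. Of all probes 12.5% fell there. NOG (noggin), which like CHRD sequesters BMPs, did not pass in either hypoxia comparison.

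Of 6 target genes tested in hypoxia vehicle against normoxia vehicle fetuses, JUNB and MYC rose and the collagens COL1A2 and COL3A1 fell. In that comparison 16.1% of all probes passed, and the list's median was 0.02. JUNB, a subunit of the AP-1 transcription factor, rose by 2.79 ± 0.74 (unadjusted p = 0.00231) and COL3A1 fell by 0.57 ± 0.14 (unadjusted p = 0.0012), each passing under 25 of 26 alternatives. In hypoxia ketamine against hypoxia vehicle fetuses JUNB fell by 2.16 ± 0.69 (unadjusted p = 0.00768). MYC also passed there, at -1.22 ± 0.56, but under 4 of 26 alternatives only, and its change was -1.87 without hypoxia vehicle replicate 2, where it passed, and -0.75 without hypoxia vehicle replicate 1, where it did not. In hypoxia ketamine against normoxia ketamine fetuses COL3A1 fell by 0.49 ± 0.13 and COL1A2 by 0.33 ± 0.15, with 25 and 6 of 26 alternatives passing. In the average over both treatments 3 of the 6 rose and 2 fell, where 20.2% of all probes passed. JUNB rose by 1.80 and MYC by 1.13, while COL3A1 fell by 0.53 and COL1A2 by 0.39. Of 25 alternatives 24, 21, 25 and 24 passed for these genes. The unadjusted limma p of COL3A1 (8.09e-05) was below that of SMAD5 (0.000341), so COL3A1 also passed after adjustment.

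Of 8 genes tied to epithelial-mesenchymal transition other than SNAI2, MMP2 (gelatinase A) alone fell in hypoxia vehicle against normoxia vehicle fetuses. Over all probes 10.3% fell there. MMP2 fell by 0.67 ± 0.21 (unadjusted p = 0.00645 in limma) and passed under 25 of 26 alternatives. MMP2 also fell in normoxia ketamine against normoxia vehicle fetuses, by 0.48 ± 0.21 (unadjusted p = 0.0385) and under 19 of 26 alternatives; both comparisons rest on the same 3 normoxia vehicle arrays. None of the 8 passed in hypoxia ketamine against hypoxia vehicle fetuses, the comparison in which SNAI2 rose. Averaged over both treatments MMP2 fell by 0.37 ± 0.14, SNAI1, a repressor of the same family as SNAI2, fell by 0.22 ± 0.09, and the tight junction gene OCLN fell by 0.29 ± 0.12. CLDN1, another tight junction gene, rose by 0.55 ± 0.21. In that average 20.2% of all probes passed. Of 25 alternatives 22 passed for MMP2, 18 for SNAI1, 13 for OCLN and 21 for CLDN1.

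Genes with the pattern most like that of a member were ranked by the root mean square of the difference between centred log2 values over the 15 arrays, among 840 other named genes. The closest to SNAI2 were AGTR1, the angiotensin II type 1 receptor, at 0.33, the homeobox gene NKX6.1 at 0.34, and INHBA, a subunit of activins, at 0.41. SNAI2 itself had an SD of 0.70 over the arrays and the median distance over the 840 genes was 0.76. Centred AGTR1 means were -0.03 in hypoxia ketamine, -0.61 in hypoxia vehicle, 0.29 in normoxia ketamine and 0.47 in normoxia vehicle fetuses. Those of SNAI2 were 0.08 in hypoxia ketamine, -0.89 in hypoxia vehicle, 0.36 in normoxia ketamine and 0.59 in normoxia vehicle fetuses. For the other members ranked, the closest gene was less near relative to the member's own spread. It was VDUP1 for CHRD (0.31 against an SD of 0.43) and EIF4GI for TGFB3 (0.31 against 0.49). For TGFB2 it was NPY3R (0.49 against 0.67) and for TGFBR1 it was ARNT (0.21 against 0.33).

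**Figure D4:**
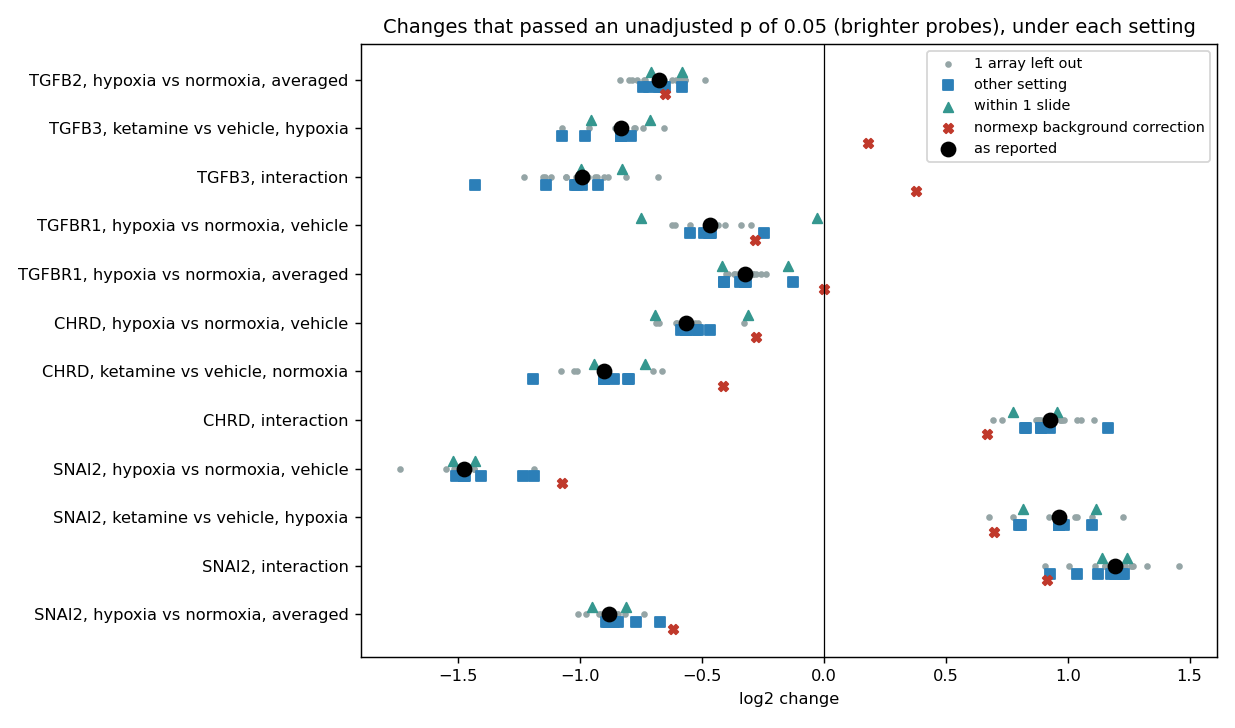
The 12 log2 changes of brighter probes that passed, each for 1 gene in 1 comparison (black), beside the values with 1 array left out (grey), within 1 slide (green triangles), with normexp background correction (red crosses) and under the other settings (blue). The SNAI2 values keep their sign throughout, and the normexp crosses of TGFB3 lie at 0.18 and 0.38, across zero from the other points.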

How the data were processed

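Agilent Feature Extraction 10.1.1.1 had subtracted the background from each spot's intensity and removed spatial trends, per the file headers, giving the deposited intensity on a linear scale with no scaling between arrays. A deposited value table on the log2 scale holds 11705 probes, among them 7 of the 11 described here and none of TGFB3 or CHRD; 12 of its 15 columns tracked another array of their own group best, and it served as an alternative. The submitters' processing notes name limma; its version is not given in the sources used here, and neither is a genome build, so no coordinates are printed.

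Processed signals were taken as log2 relative to each array's 75th percentile, and replicate spots not marked as outliers were averaged. The 12927 probes well above background on at least 3 of 15 arrays were tested with limma 3.58.1 (R 4.3.3), 1 mean per group and a variance shared by all 15 arrays (11 residual and 2.4 prior degrees of freedom), two-sided, at the unadjusted 0.05 of the labels and after Benjamini-Hochberg adjustment. The fit was tested on simulated data. Symbols were updated through RefSeq for 292 probes.

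A gene's brighter probe, by mean log2 signal, gives its result. Pathway genes named are at most the 4 largest changes past the threshold in a list and comparison, and the list counts leave the 7 members out. Members and lists were chosen with earlier results of these data known. Replicates are separate fetuses. Alternatives were normexp (offset 50), quantile scaling, no filter, the deposited table, only the groups compared, the slide as a block and within slides, the replicate number as a block, each array left out, and, chosen after seeing the data, leaving out the arrays with placental lactogen or the 2 least alike. One tissue marker is not reported here.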

Additional observations from a re-analysis of the deposited data

Results flagged for a closer look

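The hypoxia change differed between ketamine and vehicle fetuses at an unadjusted limma p of 0.05 for 5 of the 11 probes. The interaction term was fitted over all 15 arrays, and 3.13% of all probes passed in it. Because the members were chosen with earlier results of these data known, their count beside that share is descriptive only. The difference, ketamine minus vehicle, was 1.19 (unadjusted p = 0.0139) and 1.11 (unadjusted p = 0.0389) on the log2 scale for the SNAI2 probes, 0.93 (unadjusted p = 0.0124) for the brighter CHRD probe, and -0.99 (unadjusted p = 0.0276) and -1.40 (unadjusted p = 0.0402) for the TGFB3 probes. The adjusted p was 0.989 for each of the 5. The probes of SNAI2, and those of TGFB3, share 59 of 60 bases and are not separate evidence. TGFB3 and CHRD were near the detection limit. No array stood apart from its group by Dixon's test in the 33 groups of 4 arrays examined, of which chance flags about 1 in 20.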

How the results depend on the processing

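The 18 changes of member probes that passed had 452 values under the alternatives, of which 347 also passed and 4 had the opposite sign; for SNAI2 184 of 204 passed and none turned. All 4 turned with normexp: TGFB3 at 0.18 for ketamine in hypoxia, its interaction at 0.38 and 0.21 for the brighter and dimmer probe, and TGFBR1 at 0.0016 averaged; normexp moved the median of all probes in the interaction to 0.18, against 0.03. Within slide 2, TGFB3 averaged over treatments was -0.47, against the reported 0.07, which did not pass. Counts of the 7 genes that passed were 3 for hypoxia with vehicle, 0 for hypoxia with ketamine, 2 for ketamine in hypoxia, 1 for ketamine in normoxia, 3 for the interaction and 3 averaged. With normexp, and in the deposited table, which lacks TGFB3 and CHRD, the first 5 of these became 1, 1, 1, 0 and 1. With only the groups compared, hypoxia with ketamine gave 1 and ketamine in normoxia 2. Slide 1 gave 0 for ketamine in hypoxia, ketamine in normoxia and the interaction, and 1 averaged. Slide 2 gave 2 for hypoxia with ketamine. Hypoxia with ketamine also gave 2 with the replicate block and without the arrays with placental lactogen, and 1 without the 2 arrays least like the others. With 1 array left out, the counts ranged from 1 to 4 for hypoxia with vehicle, 0 to 2 for hypoxia with ketamine, 2 to 3 for ketamine in hypoxia, 1 to 2 for ketamine in normoxia, 2 to 3 for the interaction and 1 to 3 averaged. With the replicate block the SNAI2 interaction was 1.12 (unadjusted p = 0.0253) and 13 of the 18 changes passed. Same-numbered arrays of different groups had correlations of deviations from the group means with a median of 0.04 over 21 pairs. Of these, 3 were over 0.1. With 3 or 4 arrays in a group these values cannot show whether the numbers pair the fetuses. Low signal over background limits TGFB3, CHRD and TGFBR1. Over all probes, the counts past the threshold were 2082 for hypoxia with vehicle (665 within slide 2, 1254 with normexp, 1307 without normoxia vehicle replicate 2), 1118 for hypoxia with ketamine (604 within slide 1, 771 with normexp), 782 for ketamine in hypoxia (276 within slide 1, 400 with normexp, 431 with only the groups compared, 1455 without the arrays with placental lactogen, 1598 without hypoxia ketamine replicate 2), 349 for ketamine in normoxia (116 with normexp, 671 with only the groups compared, 220 to 543 with 1 normoxia vehicle array left out), 405 for the interaction (198 with normexp, 235 to 984 with 1 array left out) and 2616 averaged (1085 within slide 2, 1682 with normexp).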

Other observations

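SNAI2 varied most in hypoxia vehicle fetuses, with an SD of 0.42 in hypoxia ketamine, 0.69 in hypoxia vehicle, 0.19 in normoxia ketamine and 0.08 in normoxia vehicle fetuses. The median SD over all probes was 0.24, 0.29, 0.21 and 0.18 in the same groups. The difference in spread was not tested. Over all 15 arrays the SD of the brighter SNAI2 probe exceeded that of 89.8% of the probes tested and the SD of TGFB2 that of 89.0%.

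SNAI2 and the monocyte and macrophage sum differed among the hypoxia vehicle replicates: replicate 4 at -4.25 had a sum of 2.09, replicate 1 at -3.52 had 1.37, replicate 3 at -3.17 had 4.35 and replicate 2 at -2.61 had 2.73. The 2 arrays with the lower SNAI2 values had the 2 lower sums. Among the hypoxia ketamine replicates the order ran the other way. Replicate 2 at -2.82 had a sum of 4.37 and replicate 1 at -2.61 had 1.86. Replicate 4 at -2.41 had 1.71 and replicate 3 at -1.85 had 1.42. Whether SNAI2 and this sum move together was not tested.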
